A study of Mus musculus with 18 samples.

Results

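Keratin-associated proteins are small proteins of the hair shaft that fill the space between keratin filaments and bind them through disulfide bonds. They were taken here as every gene of the deposited expression table whose symbol starts with Krtap followed by a number. This gave 56 genes of the 41079 in the table, in 27 numbered subfamilies. The genes are small, mostly free of introns, and lie in clusters. In growing hair follicles they are transcribed late, in cells of the cortex and cuticle that already make hair keratins. Proteins rich in glycine and tyrosine belong to the earlier part of that program, and cysteine-rich proteins of the high sulfur and ultra-high sulfur classes follow. Resting follicles and the epidermis between follicles make little or none of them.

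The tumors were melanomas that grew under the skin of female C57BL/6 mice after injection of B16F10 cells, a pigmented mouse melanoma line of C57BL/6 origin. From day 6, at a volume of about 50 mm3, they were injected every 2 days, and tumors were collected 48 h after the last injection. There were 6 groups of 3 tumors each. PS473 is a Pistol ribozyme, an RNA that cuts another RNA, directed at the transcript of PD-L1. It was given alone (Free PS473), on cationic polymers (PS473@CPs) or in a manganese metal-organic framework (PS473@NKMOF-101-[Mn]). The controls were the empty framework (NKMOF-101-[Mn]), the framework with the inactive ribozyme M5 (M5@NKMOF-101-[Mn]) and buffer (PBS). The titles of the 3 tumors with PS473 in the framework read NKMOF-102, and they were assigned to the framework group that the treatment description names. Poly(A) RNA of each tumor was sequenced, and levels are FPKM, fragments per kilobase of gene and per 1000000 fragments assigned to genes. The labels list separate tumors, and p-values measure the spread between these tumors. A lower level in a whole tumor can come from fewer cells of a type or from less RNA in each cell, and these cannot be told apart.

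The number of fragments assigned to genes, recovered from the steps between low FPKM values, was 17212000 to 28401000 per tumor. Of 153 pairs of tumors, 0 held identical values. The summed level of 12 melanocyte genes was 5058 to 8030 FPKM, and all 12 had a mean of at least 1 FPKM. Keratinocyte genes were uneven between tumors of the same group. Krt14, a keratin of basal epidermis and outer root sheath, was at 0 in 5 tumors and at 2058 FPKM in PBS tumor 2 and 1756 FPKM in PS473@CPs tumor 2.

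The coding sequences show what the family has in common and how its classes differ. Each gene was placed in a class from its codons alone, so a class here is a composition and does not by itself fix a gene's place in the hair shaft program. A gene was called high glycine-tyrosine at 35% or more glycine and tyrosine codons, otherwise ultra-high sulfur at 30% or more cysteine codons, and otherwise high sulfur. The first 50 codons (150 bases) are shown for the gene with the highest mean level in each class and for the gene richest in glycine and tyrosine. Sequences are from the GENCODE M21 annotation of mouse build GRCm38, 5′ to 3′ from the start codon. Capitals mark cysteine codons in Krtap3-2 and Krtap4-6, and glycine and tyrosine codons in Krtap28-13 and Krtap6-1.
Krtap3-2: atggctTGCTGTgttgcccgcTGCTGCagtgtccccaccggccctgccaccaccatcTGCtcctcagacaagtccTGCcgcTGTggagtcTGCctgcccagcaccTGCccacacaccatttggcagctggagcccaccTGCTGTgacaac
Krtap4-6: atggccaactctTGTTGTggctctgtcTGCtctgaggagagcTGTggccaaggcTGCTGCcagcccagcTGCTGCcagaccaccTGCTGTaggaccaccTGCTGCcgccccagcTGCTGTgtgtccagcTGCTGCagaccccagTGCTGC
Krtap28-13: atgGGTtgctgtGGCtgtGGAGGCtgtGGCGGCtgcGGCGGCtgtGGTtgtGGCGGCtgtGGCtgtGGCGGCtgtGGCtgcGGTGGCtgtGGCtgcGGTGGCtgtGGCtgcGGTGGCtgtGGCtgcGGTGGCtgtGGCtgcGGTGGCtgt
Krtap6-1: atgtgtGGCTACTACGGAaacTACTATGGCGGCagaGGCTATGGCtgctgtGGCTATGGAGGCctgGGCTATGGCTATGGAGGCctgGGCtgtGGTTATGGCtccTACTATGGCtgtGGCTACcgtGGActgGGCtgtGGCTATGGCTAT

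Of these 50 codons, 11 coded for cysteine in Krtap3-2 and 18 in Krtap4-6, where most came in pairs. In Krtap28-13 29 of the 50 coded for glycine or tyrosine, and in Krtap6-1 36. Over whole coding sequences the high sulfur class held 21 genes with 4% to 29.8% cysteine codons. The ultra-high sulfur class held 17 genes with 30.3% to 41.5%. The high glycine-tyrosine class held 18 genes with 36.0% to 69.2% glycine and tyrosine codons. Krtap28-13, Krtap5-2 and Krtap5-3 of that class were also rich in cysteine, at 42.8%, 34.6% and 35.1% of codons. In Krtap28-13 the cysteine share was above its 42.0% of glycine and tyrosine codons. Krtap17-1 lay just under the glycine-tyrosine limit at 34.9% and was counted as ultra-high sulfur. Krtap7-1, usually counted as a glycine-tyrosine protein, reached 29.9% and was counted as high sulfur.

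Krtap transcripts were at or near the limit of detection in all tumors. Of the 56 genes, 47 were at 0 in all 18 tumors. These were 83.9% of the family, beside 23.8% (9793) of the whole table and 36.8% (5041) of the 13689 genes in the same range of gene length, 380 to 1891 bases. Of the 1008 values (56 genes in 18 tumors), 17 were above 0, which is 1.69%, beside 55.9% over the whole table. The family held 23.5 fragments of 381789000 in all tumors (exact Poisson 95% interval 15.0 to 35.1). Intervals and limits given here cover counting error only. The highest single value was 0.190 FPKM, and 0 genes reached a mean of 0.1 FPKM over the 18 tumors.

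A count of 0 allows up to 3 fragments, and this sets how firmly absence can be stated. For one gene in one tumor the limit lay between 0.0559 and 0.459 FPKM, depending on gene length and depth. Over all 18 tumors together it lay between 0.00416 and 0.0207 FPKM. The 47 genes at 0 were therefore not detectable at this depth.

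The 47 genes at 0 covered most of the hair shaft program. In the high glycine-tyrosine class, 17 of 18 were at 0. They were Krtap5-2, Krtap5-3, Krtap6-1, Krtap6-2, Krtap6-3, Krtap6-5, Krtap8-1, Krtap16-3, Krtap19-1, Krtap19-2, Krtap19-3, Krtap19-4, Krtap19-5, Krtap19-9b, Krtap20-2, Krtap21-1 and Krtap22-2. The Krtap6, Krtap8 and Krtap19 genes among them code for proteins of the hair cortex. In the ultra-high sulfur class 13 of 17 were at 0. They were Krtap1-3, Krtap4-1, Krtap4-2, Krtap4-7, Krtap4-9, Krtap4-13, Krtap5-1, Krtap5-5, Krtap9-1, Krtap9-5, Krtap10-4, Krtap10-10 and Krtap17-1. The Krtap5 and Krtap10 subfamilies are known for the hair cuticle. In the high sulfur class 17 of 21 were at 0. They were Krtap1-4, Krtap1-5, Krtap2-4, Krtap3-1, Krtap3-3, Krtap7-1, Krtap9-3, Krtap11-1, Krtap12-1, Krtap13, Krtap14, Krtap15-1, Krtap24-1, Krtap26-1, Krtap27-1, Krtap31-1 and Krtap31-2. Of the 27 numbered subfamilies, 20 had no fragment.

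The 9 genes above 0 were 4 high sulfur genes with 14 fragments, 4 ultra-high sulfur genes with 8.5 and 1 high glycine-tyrosine gene with 1. In the plot of codon composition they were not gathered at one composition.

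**Figure D1:**
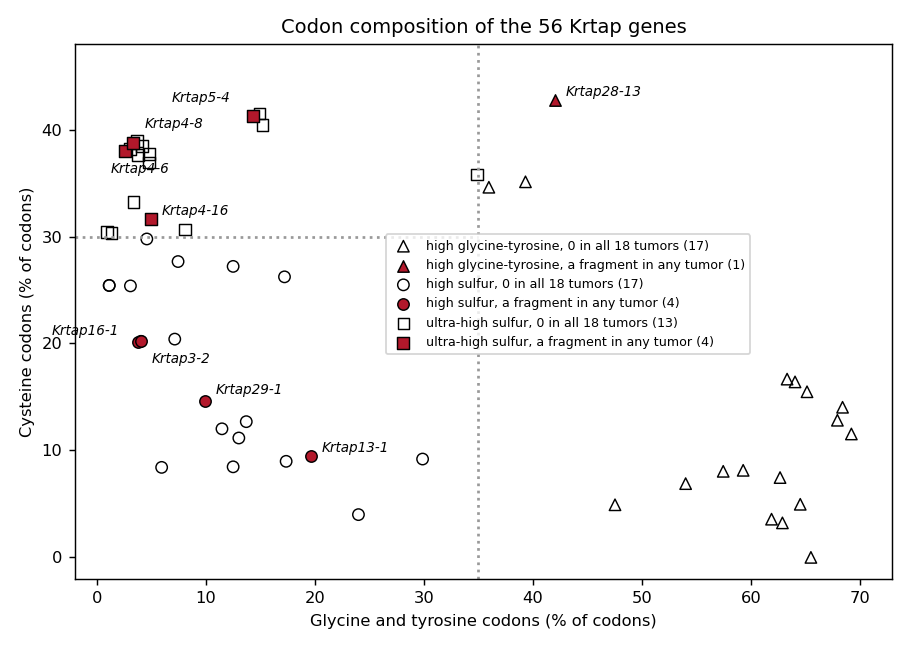
Share of glycine and tyrosine codons (horizontal axis, %) and of cysteine codons (vertical axis, %) for the 56 Krtap genes. Marker shapes are the 3 classes, dotted lines the limits at 35% and 30%, and filled red markers the 9 genes above 0 in any tumor. Only Krtap28-13 of the 18 high glycine-tyrosine genes is filled.

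Krtap3-2, a high sulfur gene, was above 0 in 7 of 18 tumors and held 11 of the 23.5 fragments. It was at 0.190 FPKM (4 fragments) in NKMOF-101-[Mn] tumor 1 and at 0 in tumors 2 and 3 of that group. In M5@NKMOF-101-[Mn] it was at 0.0282, 0.0964 and 0 FPKM (0.5, 2 and 0 fragments). PS473@NKMOF-101-[Mn] tumors were at 0, 0.0462 and 0.0475 FPKM (0, 1 and 1 fragments). PS473@CPs tumor 2 was at 0.0593 FPKM (1.5 fragments) and PBS tumor 2 at 0.0497 FPKM (1 fragment), with the other tumors of both groups at 0, and all 3 Free PS473 tumors were at 0. Every group thus held at least 1 tumor at 0, and the groups overlapped. Of the 50-base stretches of its transcripts, 28.9% also occur in Krtap3-3, which was itself at 0 in all 18 tumors. How fragments from the shared stretches were assigned was not tested.

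The other high sulfur genes were each seen once. Krtap13-1 had 1 fragment in Free PS473 tumor 1 (0.0663 FPKM). Krtap16-1 and Krtap29-1 had 1 fragment each in Free PS473 tumor 3, at 0.0250 and 0.0439 FPKM. All the 50-base stretches of these 3 genes are found in no other gene.

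Among ultra-high sulfur genes, Krtap4-6 was above 0 in NKMOF-101-[Mn] tumors 1 and 2, at 0.107 and 0.0490 FPKM (2 and 1 fragments). It was at 0 in the other 16 tumors. Krtap4-16 was above 0 in M5@NKMOF-101-[Mn] tumors 1 and 3, at 0.0611 and 0.0796 FPKM (1 and 1.5 fragments), and at 0 elsewhere. Krtap4-8 had 2 fragments (0.150 FPKM) and Krtap5-4 had 1 (0.0472 FPKM), both in Free PS473 tumor 3. The glycine-rich Krtap28-13 had 1 fragment, in PS473@CPs tumor 3 (0.0355 FPKM). Of the 17 values above 0, 11 were 1 fragment or less, 6 were above it, and 3 were not whole numbers of fragments at a tolerance of 0.05.

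**Figure D2:**
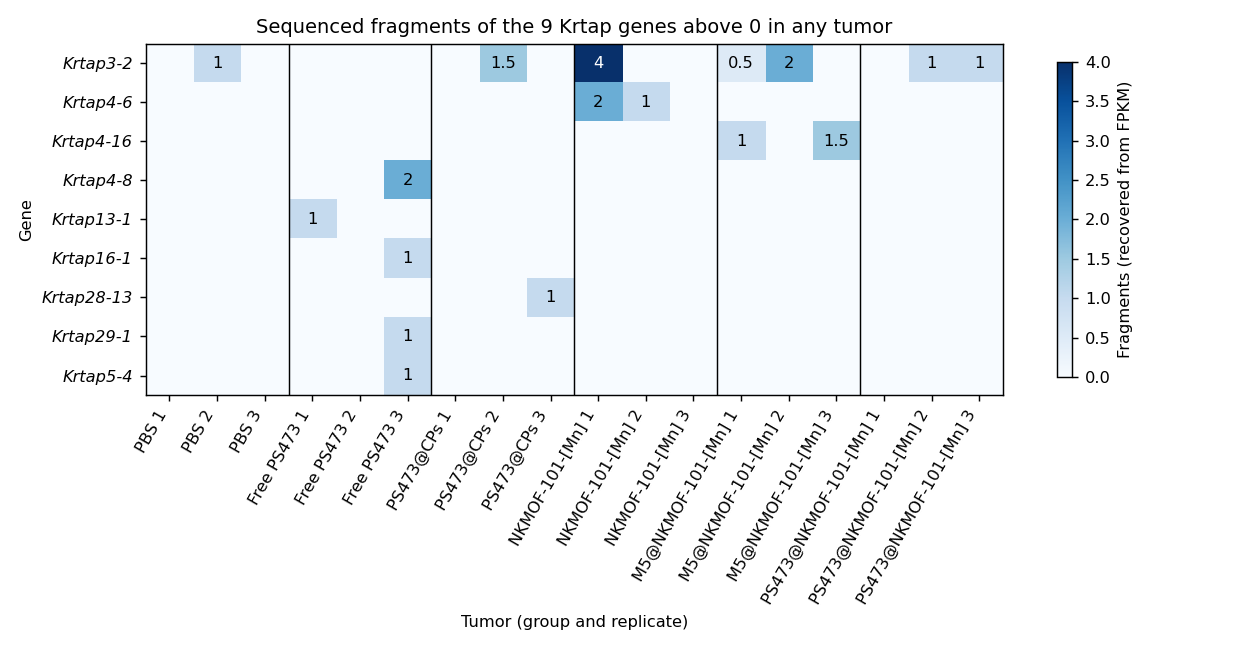
Fragments (numbers and blue shading) of the 9 Krtap genes above 0 in any tumor, with the 18 tumors in columns and lines between groups. Empty cells are 0; the highest is the 4 fragments of Krtap3-2 in NKMOF-101-[Mn] tumor 1, and 6 of the genes have a single filled cell.

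Summed over the family, 12 tumors had at least 1 fragment or part of one and 6 had none. The 3 PBS tumors held 0, 1 and 0 fragments, a summed level of 0.0166 ± 0.0287 FPKM (SD, n = 3). Free PS473 tumors held 1, 0 and 5 fragments, 0.111 ± 0.139 FPKM (SD, n = 3). PS473@CPs tumors held 0, 1.5 and 1 fragments, 0.0316 ± 0.0298 FPKM (SD, n = 3). The SD inside these groups was close to or above the mean. NKMOF-101-[Mn] tumors held 6, 1 and 0 fragments, 0.115 ± 0.159 FPKM (SD, n = 3). M5@NKMOF-101-[Mn] tumors held 1.5, 2 and 1.5 fragments, 0.0884 ± 0.00844 FPKM (SD, n = 3). PS473@NKMOF-101-[Mn] tumors held 0, 1 and 1 fragments, 0.0312 ± 0.0270 FPKM (SD, n = 3).

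The counting intervals of the groups overlapped. By exact Poisson 95% intervals the fragments per group were 1 in PBS (0.0253 to 5.57), 7 in NKMOF-101-[Mn] (2.81 to 14.4) and 6 in Free PS473 (2.20 to 13.1). They were 5 in M5@NKMOF-101-[Mn] (1.62 to 11.7), 2.5 in PS473@CPs (0.416 to 8.01) and 2 in PS473@NKMOF-101-[Mn] (0.242 to 7.22). On the scale of log2(summed FPKM + 1), PS473@NKMOF-101-[Mn] minus PBS was 0.02 and NKMOF-101-[Mn] minus PBS was 0.12, where the larger SD of the compared groups was 0.04 and 0.20. Free PS473 minus PBS was 0.12 (SD 0.18). Single tumors decided these values. NKMOF-101-[Mn] minus PBS was 0.01 without tumor 1 of that framework group, and Free PS473 minus PBS was 0.02 without Free PS473 tumor 3. Leaving out any 1 tumor gave 0.0090 to 0.044 for PS473@NKMOF-101-[Mn] minus PBS. In 2 of 9 comparisons the summed values did not overlap. M5@NKMOF-101-[Mn] tumors (0.0796 to 0.0964 FPKM) lay above all PBS tumors and above all tumors given PS473 in the framework, by 1.5 to 2 fragments against at most 1. Of single genes, 3.44% of the 31286 above 0 in any tumor lay wholly higher in M5@NKMOF-101-[Mn] than in PBS. For PS473@NKMOF-101-[Mn] wholly under the framework with M5 the share was 2.53%. Of single Krtap genes, 0 separated either pair of groups.

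The test across all genes could not be made for the family as planned. It was limma on log2(FPKM + 1) for the 12357 genes whose mean reached 1 FPKM. Genes were called where the Benjamini-Hochberg adjusted p was under 0.05 and the change exceeded 2-fold. Of the 56 Krtap genes 0 passed the filter. In all 9 comparisons 0 genes were called over the whole table (0% of 12357). Without the filter limma tested 31286 genes, of which 9 were Krtap genes. Their highest value allows a change of at most 0.25 on the log2(FPKM + 1) scale, so the limit of 2-fold could not be passed and a count of 0 under it is void. The adjusted p was therefore read at any fold, a choice made after seeing the data, and 0 Krtap genes had an adjusted p under 0.05 in each of the 9 comparisons. Over all genes the share was 0.00639% for PS473@NKMOF-101-[Mn] against PBS and against Free PS473 and for Free PS473 against PBS. It was 0.0032% for PS473@NKMOF-101-[Mn] against PS473@CPs, 0.00959% for M5@NKMOF-101-[Mn] against PBS and against PS473 in the framework, and 0% in the other 3 comparisons. With voom on the recovered fragments 0 Krtap genes were called, and 0 to 2 genes of the whole table per comparison. At an unadjusted p under 0.05, whatever the fold, 1 of the 9 Krtap genes passed against PBS in NKMOF-101-[Mn] (2.71% of all genes) and in M5@NKMOF-101-[Mn] (3.48%). For PS473@NKMOF-101-[Mn] it was 1 against the empty framework (3.12%) and 1 against the framework with M5 (2.47%). It was 0 for PS473@NKMOF-101-[Mn] against PBS (2.93%), PS473@CPs (2.74%) and Free PS473 (4.89%). It was also 0 against PBS for Free PS473 (3.28%) and for PS473@CPs (2.87%).

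Krtap4-6 and Krtap4-16, the genes behind these p-values, had fragments in 2 tumors of one group and in no other group. They entered the test only through that group, so passing it is no support for a difference. Krtap4-6 differed between NKMOF-101-[Mn] and PBS by 0.07 on the log2 scale (SE 0.02), and limma gave an adjusted p of 1 (0.00886 before adjustment). Krtap4-16 differed between M5@NKMOF-101-[Mn] and PBS by 0.07 (SE 0.02), and limma gave an adjusted p of 1 (0.00391 before adjustment). Both had the same difference against PS473@NKMOF-101-[Mn], where they were also at 0. Those results rest on 3 and 2.5 fragments, and with all tumors no change was called for either gene. Leaving out the 1 tumor of the group that was at 0 brought both under the threshold at any fold. Without NKMOF-101-[Mn] tumor 3, Krtap4-6 had an adjusted limma p of 0.0286 against PBS (0.0513% of 31208 genes called) and against PS473 in the framework (0.0417%). Without M5@NKMOF-101-[Mn] tumor 2, Krtap4-16 had an adjusted limma p of 9.27e-05 against PBS (0.0772% of 31093 genes) and against PS473 in the framework (0.0708%). The group then held 2 tumors, both above 0, beside groups wholly at 0. A small p follows from leaving out that tumor, so these p-values give no support for a difference. Krtap3-2, with the most fragments, had an unadjusted limma p of 0.716 in PS473@NKMOF-101-[Mn] against PBS.

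For any difference among the 6 groups, limma's F test without the filter gave an unadjusted p of 0.0189 for Krtap4-16 and 0.0443 for Krtap4-6, both with an adjusted p of 1.00. These 2 of 9 stand beside 3.21% of all 31286 genes at an unadjusted p under 0.05. Both genes are among the 9 only through the group where they were above 0, so their number is no support for a difference. When M5@NKMOF-101-[Mn] tumor 2, at 0 for Krtap4-16, was left out, this gene had an adjusted p of 0.000448 in limma's F test, and 17 of 31093 genes (0.0547%) were called. The M5@NKMOF-101-[Mn] group then held 2 tumors with 1 and 1.5 fragments of it, and all other groups were at 0. This p therefore gives no support for a difference.

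The place of the genes in the genome allowed the family to be compared with its neighbors. In the GENCODE M21 order, 23 Krtap genes form 1 block on chromosome 11, where 6 were above 0 with 20.5 fragments. On chromosome 16 there were 24 genes, with 1 above 0 and 1 fragment. Chromosome 7 held 5 (1 above 0, 1 fragment), chromosome 10 held 3 (0 above 0) and chromosome 1 held Krtap28-13 alone.

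The chromosome 11 block lies inside the locus of the type I keratins, between Krt40 and Krt33a, and the contrast with its neighbors was wide. On either side of it Krt10, of differentiating epidermis, reached 53.2 FPKM, and Krt15, of basal cells and the follicle bulge, 21.9 FPKM. Krt14, Krt16 and Krt17 reached 2058, 1133 and 1198 FPKM. Of 25 keratins in this stretch, 6 reached 1 FPKM and 6 were at 0 in every tumor. The hair shaft keratins Krt33a, Krt33b, Krt34 and Krt31, next to the Krtap block, were among those at 0, together with Krt26 and Krt40. Within the block 15 other genes carry no Krtap number, and 4 of them had 11.9 fragments in all, with the highest value 0.195 FPKM in Gm11564. Some of the 15 share sequence with Krtap genes. Gm11554 held 81.3% of the 50-base stretches of Krtap4-13, Gm11562 40.4% of those of Krtap2-4 and Gm11559 35.7% of those of Krtap9-1. Inside the Krtap blocks of all chromosomes 24 unnumbered genes held 13.9 fragments, which the family totals leave out.

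**Figure D3:**
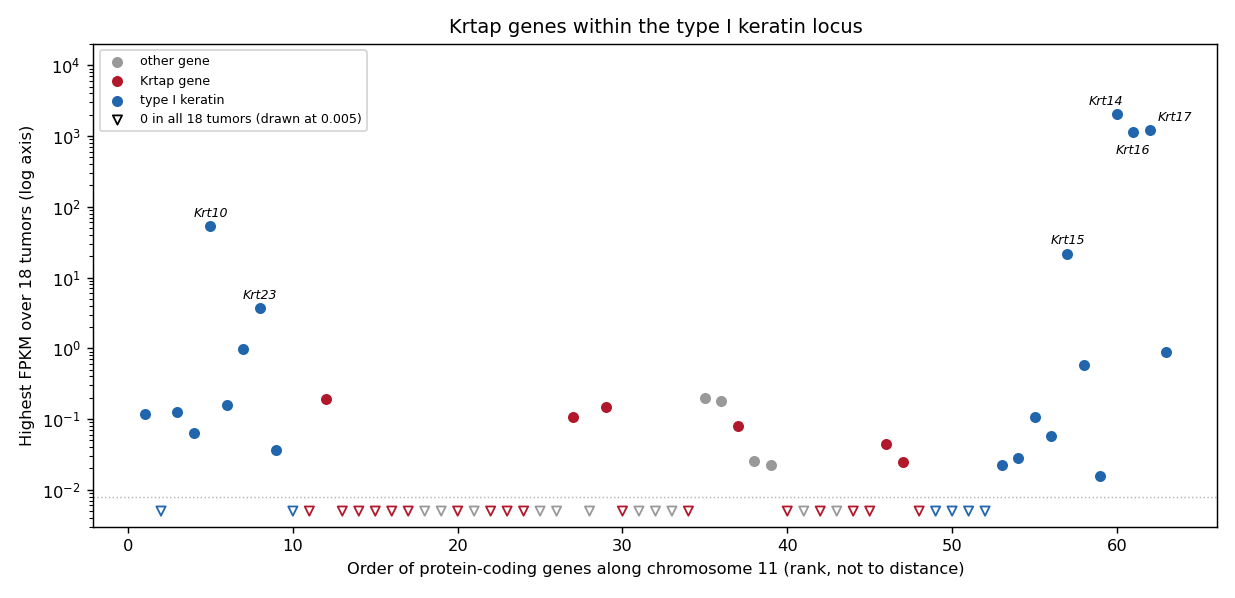
Highest FPKM over the 18 tumors (log axis) for protein-coding genes in their order along the type I keratin locus of chromosome 11, from Krt25 to Krt42; red points are Krtap genes, blue points keratins and open triangles genes at 0 in all tumors. The Krtap genes stay at or below 0.190 FPKM, while 6 keratins outside the block lie above 1 FPKM and Krt14 at 2058.

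Shared sequence can take fragments away from a gene, and its extent was measured. On GENCODE M21 transcripts the median Krtap gene had 92.3% of its 50-base stretches in no other gene. Of the 47 genes at 0, 27 had at least 90% of such stretches. At the other end, Krtap4-13 had 18.7% and Krtap5-1 39.4%, and their zeros are the least certain. Of all 56 genes, 51 had a single exon. Of 794 other single-exon genes, 471 were above 0 in any tumor and 174 had a mean of at least 1 FPKM.

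Most of the promoters given for the family hold a TATA box. RefSeq promoters (build GRCm38.p6, 250 bases before to 50 after the start) were given for 51 of the 56 genes. TATAAA, searched on the gene's strand with its first base 45 to 20 bases before the start, stood in 32 of 51 (62.7%), beside 2.14% of 32851 promoters. Anywhere in the window and on both strands it stood in 42 (82.4%), beside 13.6%. The 60 bases before the start are shown for the gene named first in each class, with TATAAA in capitals, to show how alike the position is.
Krtap3-2, chr11:99556854-99556913, minus strand: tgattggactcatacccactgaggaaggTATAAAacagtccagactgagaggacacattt
Krtap4-6, chr11:99665961-99666020, minus strand: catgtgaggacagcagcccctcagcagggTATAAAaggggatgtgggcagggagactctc
Krtap28-13, chr1:83060870-83060929, plus strand: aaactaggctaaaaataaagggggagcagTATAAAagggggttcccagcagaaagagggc

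The box began 32 bases before the start in Krtap3-2 and 31 in Krtap4-6, both on chromosome 11, and 31 in Krtap28-13 on chromosome 1. TCGTAAA, a motif of posterior Hox proteins such as Hoxc13, was found on either strand in 1 of 51 promoters (1.96%), beside 0.597% of all. CTTTGA, part of the motif of TCF and LEF factors, was found on either strand in 15 (29.4%), beside 16.0%. A match says only that these letters are present.

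Other structures of the follicle and skin were then read in the same tumors, from gene lists that name each layer. Hair shaft keratins, the partners of Krtap proteins, were also scarce. Leaving out Krt87, 6 of 15 were at 0 in all tumors, the rest held 67.8 fragments together, and the highest value was 0.289 FPKM (Krt84, PBS tumor 2). Krt87 was at 0.882 to 2.86 FPKM in every tumor, also in those with Krt14 at 0. Keratins of the inner root sheath, the layer that encloses the growing shaft, had 45.2 fragments over 8 genes, 2 of them at 0, with the highest value 0.127 FPKM in Krt27. Other genes of that list of 12 were higher, and 2 reached 1 FPKM. Cux1 was at 2.21 to 3.30 FPKM in the 18 tumors, and Gata3 reached 1.75 FPKM in PS473@CPs tumor 2. Fbp1 reached 0.239 FPKM, in the same tumor.

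The 14 other genes of the shaft list were mixed, with a summed level of 81.1 to 148 FPKM. Of these, 6 reached 1 FPKM. Selenbp1 (up to 115 FPKM) and Desi1 (29.6 FPKM) were high in every tumor, and Lpar6 (up to 5.09 FPKM) was above 0 in all 18. In PBS tumor 2 Tgm3, a transglutaminase, was at 9.60 FPKM and Gsdma at 6.89 FPKM. Gsdma3 reached 2.95 FPKM in PS473@CPs tumor 2. The other 8 stayed under 1 FPKM, Prr9 at up to 0.672 and Padi4 at up to 0.621.

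Of 14 genes of the matrix, the dividing cells at the base of a growing follicle, and of hair transcription factors, 10 stayed under 1 FPKM. The other 4 were Ctsl, a lysosomal protease of many cell types, at up to 50.7 FPKM, Ovol1 at up to 3.18, Foxq1 at up to 1.33 and Dlx3 at up to 1.17. Hoxc13, which drives hair keratin and Krtap genes, reached 0.360 FPKM, in PS473@CPs tumor 2. Foxn1, a factor of hair differentiation, reached 0.692 FPKM and Msx2 0.179 FPKM in the same tumor. Lef1 stayed at or below 0.0786 FPKM, Shh, the signal of the growing matrix, at or below 0.0358 FPKM, and Dsg4, a desmosomal cadherin of the shaft, at or below 0.0256 FPKM. Tchh, trichohyalin of the inner root sheath and medulla, reached 0.548 FPKM in PBS tumor 2.

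Genes of other skin compartments reached far higher levels, though not in every library. The summed level of 8 companion layer and outer root sheath genes ranged from 0 to 6021 FPKM, that of 7 basal epidermis genes from 16.7 to 2726 and that of 20 cornified epidermis genes from 0.582 to 885. The first pair of these lists share Krt5 and Krt14. For the Krtap genes it ranged from 0 to 0.297 FPKM. The companion layer and outer root sheath sum was 0 in PBS tumor 1, Free PS473 tumor 2 and M5@NKMOF-101-[Mn] tumor 1, where the Krtap sum was 0, 0 and 0.0893 FPKM. In Free PS473 tumor 1 the sums were 0.0237 and 0.0663 FPKM. Among sebaceous gland genes, Fa2h, a fatty acid hydroxylase, reached 19.3 FPKM, Elovl3, a fatty acid elongase, 5.76 FPKM and Awat1, a wax synthase, 5.70 FPKM, all in PS473@CPs tumor 2. Of the 11 genes of that list 8 reached 1 FPKM. Mc5r (up to 0.0824 FPKM), Dgat2l6 (0.545) and Awat2 (0.658) did not. Soat1 (up to 16.5 FPKM) and Plin2 (up to 22.3) were high in every tumor, also in those with Krt14 at 0. In the PBS tumor 2 library Krt14 had 73264 fragments and the Krtap family 1, and in PS473@CPs tumor 2 they had 78618 and 1.5.

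**Figure D4:**
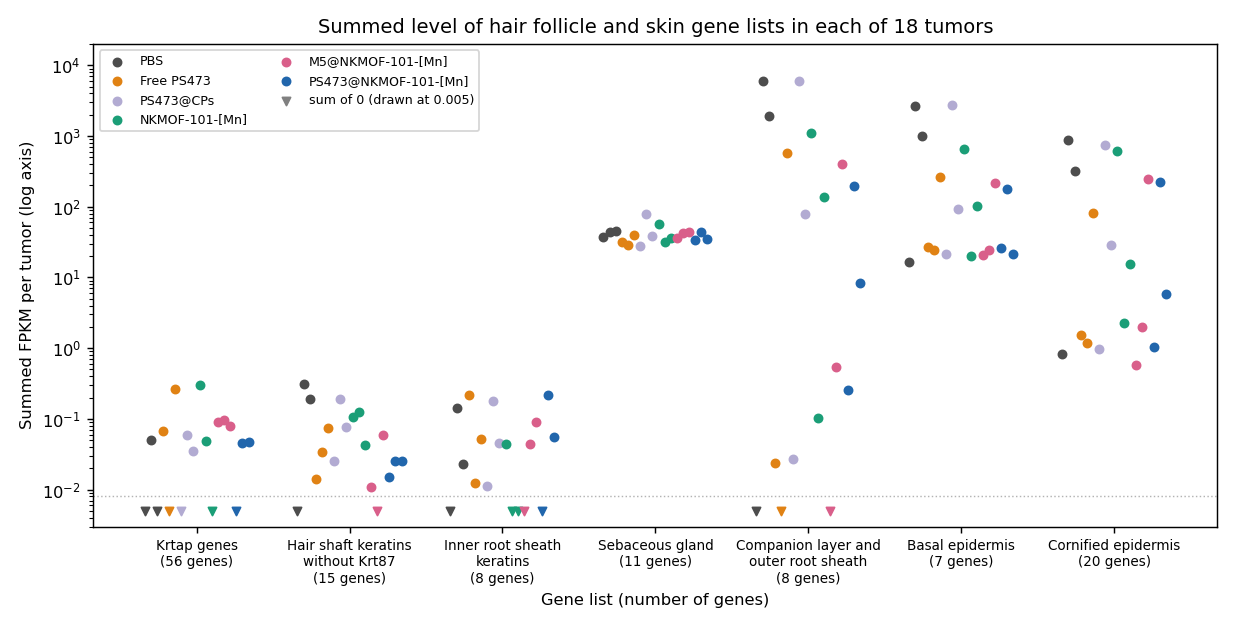
Summed FPKM (log axis) of 7 gene lists in each of the 18 tumors, with colors for groups and triangles for sums of 0. Krtap genes, hair shaft keratins without Krt87 and inner root sheath keratins stay below 1 FPKM in all tumors, while companion layer and outer root sheath genes reach 6021.

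The few Krtap fragments were not in the order of the Krt14 fragments. The 5 tumors with Krt14 at 0 held 0 (PBS tumor 1), 1 (Free PS473 tumor 1), 0 (Free PS473 tumor 2), 1 (NKMOF-101-[Mn] tumor 2) and 1.5 Krtap fragments (M5@NKMOF-101-[Mn] tumor 1). PBS tumor 3, with 23843 Krt14 fragments, held 0. The tumors with the most Krtap fragments, NKMOF-101-[Mn] tumor 1 with 6 and Free PS473 tumor 3 with 5, had 13944 and 7083 Krt14 fragments.

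**Figure D5:**
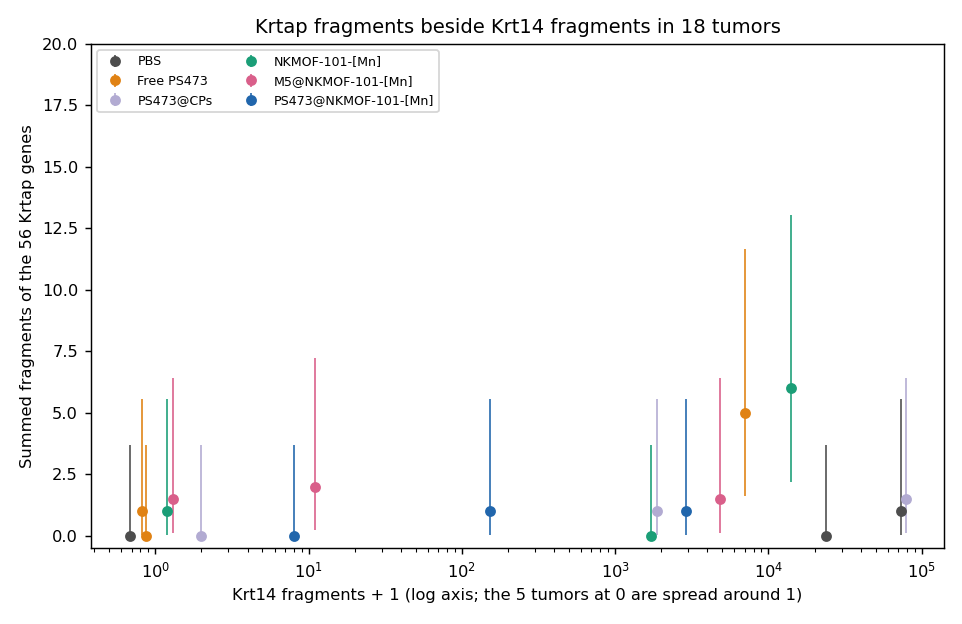
Krt14 fragments plus 1 (horizontal log axis) and summed fragments of the 56 Krtap genes (vertical axis) in each tumor, colored by group, with exact Poisson 95% intervals. The library with 78618 Krt14 fragments holds 1.5 Krtap fragments, and the highest Krtap count is 6.

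Of the genes in these lists, 72 passed the filter at a mean of 1 FPKM, and limma called 0 of them higher and 0 lower in each of the 9 comparisons, at a background of 0% of 12357 genes. Array weights changed this. With them 24 of the 72 were called lower in Free PS473 than in PBS, beside 2.71% of all genes, 1 was called higher with PS473 in the framework than with Free PS473, beside 0.987%, and 19 were called in the F test, beside 18.7%. The estimation of these weights stopped before it converged. At an unadjusted p under 0.05 with a fold above 2, 1 was lower with PS473 in the framework than with PBS, Lce3c of the cornified layer, beside 0.299% of all genes. Casp14, a protease of cornifying cells, was the 1 lower in Free PS473 than in PBS, beside 0.146% of all genes. In the other 7 comparisons the number was 0. The median log2 difference of the 72 genes was between -0.67 and 0.08, beside -0.04 to 0.03 over all genes tested.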

How the data were processed

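The authors deposited FPKM values for each of the 18 tumors with 1 length per gene. They made libraries from oligo(dT)-selected RNA without strand marking being described. The submitters' processing notes list build GRCm39, and the aligner, counting tool and annotation are not given in the sources used here. All columns were mapped to sample titles by name, the Free PS473 columns being those with ribozyme and no carrier, and 0 columns were left unused.

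Fragments were recovered as FPKM times length times depth, with depth from the most frequent step of the 4000 lowest values. Of values under 20 fragments, 47.3% to 51.3% per tumor were whole at a tolerance of 0.05, so count models were not the main test. Tests used limma 3.58.1 in R 4.3.3 on log2(FPKM + 1) with a pseudocount of 1, 1 mean per group, a trend in the prior variance, and a mean of at least 1 FPKM, adjusted over all genes tested. Python 3.11.15 (numpy 2.4.6, pandas 2.3.3, scipy 1.17.1, matplotlib 3.10.9) did the rest. The limma procedure was tested on simulated data with known changes.

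The family, the lists and the tests were chosen with earlier results of these data known. All 56 genes are accounted for; named with values were, by class, the 4 with the highest mean, the highest of each chromosome, and those with the smallest p. Classes were set from GENCODE M21 codons, since protein sequences were not used here. Sequences come from GRCm38, and FPKM values were joined to them by gene symbol only (56 of 56 matched). Alternatives were another pseudocount, other filters, quantile normalization, no trend, array weights, a replicate block, voom, an unadjusted p, the compared groups alone and each tumor left out. Their combinations with no filter, and counts at any fold, were chosen after seeing the data.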

Additional observations from a re-analysis of the deposited data

How the results depend on the processing

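With a filter on mean FPKM no Krtap gene was tested, so 161 of the settings tried could not give a count and are void. Without a filter 5 to 9 Krtap genes were tested, but on log2(FPKM + 1) the 2-fold limit could not be passed, so 117 more counts are void and were replaced by counts at any fold, chosen after seeing the data. Of 179 counts, 169 were 0. An unadjusted p gave 2 in the F test and 1 in each of 4 comparisons: the empty framework and the framework with M5, each against PBS and against PS473 in the framework. Leaving out 1 tumor in turn gave 0 to 1 in the F test and in the same 4 comparisons, the 1 being Krtap4-16 without M5@NKMOF-101-[Mn] tumor 2 and Krtap4-6 without NKMOF-101-[Mn] tumor 3. With array weights and the filter, 335 genes of the table were called for Free PS473 against PBS, 122 for PS473@NKMOF-101-[Mn] against Free PS473 and 2310 in the F test, where 0 were called without weights. For PS473@CPs against PBS the 2 groups alone called 1 gene, as did leaving out PS473@CPs tumor 3.

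The deviations of 45 same-numbered pairs of tumors correlated at -0.73 to 0.72 (median -0.02), and 18 were over 0.1. Pairs with different numbers were not compared, so these values cannot decide whether replicate numbers pair the tumors. With the replicate number as a block and no filter, 0 Krtap genes were called in the F test and, at any fold, in each of the 9 comparisons.

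With a pseudocount of 0.1, 8 of 9 summed differences moved by more than the SD on the log2(sum + 1) scale, though a smaller pseudocount stretches differences and SD alike. The exception was PS473@NKMOF-101-[Mn] minus PS473@CPs. On that scale the log2 difference from PBS was 0.18 for PS473@NKMOF-101-[Mn] and for PS473@CPs, 0.66 for NKMOF-101-[Mn], 0.67 for Free PS473 and 0.72 for M5@NKMOF-101-[Mn]. With that pseudocount PS473@NKMOF-101-[Mn] differed by -0.50 from Free PS473, -0.49 from NKMOF-101-[Mn] and -0.54 from M5@NKMOF-101-[Mn]. As a mean over the 56 genes, M5@NKMOF-101-[Mn] minus PBS was 0.0018, and the active minus the inactive ribozyme in the framework was -0.0014. With only the 54 genes whose fragments were whole in every tumor both were 0, because Krtap3-2 and Krtap4-16 were left out. Leaving out 1 tumor gave -0.18 to 0.01 for PS473@NKMOF-101-[Mn] minus NKMOF-101-[Mn], positive without NKMOF-101-[Mn] tumor 1, and -0.17 to -0.0023 for it minus Free PS473, smallest without Free PS473 tumor 3. For M5@NKMOF-101-[Mn] minus PBS it gave 0.087 to 0.12. Depth limits all of this: no summed difference rests on more than 7 fragments in a group.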

Other observations

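Other tissues around the tumors varied between libraries in their own ways. The summed level of 12 skeletal muscle genes ranged from 2.81 to 63.1 FPKM and was highest in PBS tumor 3, where Acta1, skeletal muscle actin, stood at 30.9 FPKM. The summed level of 10 adipocyte genes ranged from 9.43 to 94.3 FPKM and was highest in Free PS473 tumor 3. The summed level of 10 dermal fibroblast genes ranged from 28.5 to 646 FPKM and was highest in PBS tumor 2, where Col1a1, a chain of type I collagen, stood at 292 FPKM. Free PS473 tumor 3, with the highest adipocyte level, held 5 Krtap fragments, while PBS tumor 3, with the highest muscle level, held 0.

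Some genes listed for the resting parts of the follicle reached higher levels than Krtap genes, whose highest value was 0.190 FPKM. Of 10 genes listed for bulge and stem cells 7 reached 1 FPKM, and of 11 listed for the dermal papilla 3 did. Several of these were above 0 in all 18 tumors, also in those with Krt14 at 0. Among them were Tcf3 (up to 35.2 FPKM), Tcf7l1 (6.97), Sox18 (10.2) and Hey1 (1.86). The counts therefore do not tell follicle cells from other cells. Among the listed genes that stayed under the Krtap maximum were Lgr6 (0.185 FPKM), Rspo3 (0.184), Rspo4 (0.146), Sox2 (0.124) and Prom1 (0.0222). Krt15, a keratin of the bulge and of basal epidermis, was above 0 in 9 of 18 tumors and reached 21.9 FPKM in NKMOF-101-[Mn] tumor 1. Krt79, a keratin of the upper follicle and sebaceous duct, was above 0 in 11 tumors and reached 67.0 FPKM in PS473@CPs tumor 2. Lgr5 and Cd34, which other cell types also make, were above 0 in all 18 tumors and reached 1.93 and 6.05 FPKM. Among genes of the dermal papilla, the cell cluster that signals to the follicle, Corin stayed at or below 0.0750 FPKM and Sostdc1 reached 1.38 FPKM in PS473@CPs tumor 2.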
